A study of Mus musculus with 20 samples.

Results

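Gpnmb, Trem2 and 8 further genes of lipid-associated macrophages were followed in subcutaneous tumours grown from the colon carcinoma line MC38 of the mouse. The 10 genes were taken by symbol from a table of 23402 gene rows, and all 10 were found there and lay above the filter on low values: Gpnmb, Trem2, Tyrobp, Cd68, Spp1, Apoe, Lgals3, Fabp5, Cd9 and Lipa. The choice was made with earlier results of the same 2 groups in view, Gpnmb, Trem2 and Cd68 among them, so the differences of these 10 genes between the groups are given as a description without a test. There were 10 libraries of vehicle-treated tumours (Control) and 10 of tumours treated with peri-tumoral ATBx (P.T.ATBx), an abbreviation the labels do not spell out. The labels name no agent, dose, time, mouse strain or age, and give all libraries the same cell line and tissue. Whether the libraries are from separate mice is not stated either, so the p-values below speak of the spread among these libraries, part of which may be technical. The labelled cell type is cancer cell, but the material is labelled as tumour tissue and held macrophage RNA.

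TREM2 is a surface receptor of macrophages and microglia that binds lipids, lipoproteins and debris. It has no signalling tail and passes its signal through the adaptor TYROBP, also called DAP12, to the kinase SYK. Macrophages that take up much lipid or many dying cells, in fat, atherosclerotic plaques and tumours, share a programme with high TREM2, the membrane glycoprotein GPNMB, osteopontin (SPP1), apolipoprotein E, galectin-3, fatty acid binding proteins and lysosomal enzymes. Several of these genes are also used by other cells: osteopontin, galectin-3 and CD9 are made by many carcinoma cells, and GPNMB by melanocytes, osteoclasts and Schwann cells.

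Values are FPKM, fragments scaled to gene length and library size, so levels may be compared between genes. Between libraries, summed FPKM differed 1.35-fold. Results that turn on scaling are given on the TPM scale as well, where each library is rescaled to the same total. By the median gene the libraries were already nearly level. Median-of-ratios factors ran from 1.0017 to 1.0039. Dividing by them barely changes the values, so that it kept all 108 genes called between the groups is no test of scaling. The TPM scale shifts all genes of a library together, and it is given as an alternative, not as a fairer scale. Read totals are unknown, but the spacing of low values gave a relative depth of 0.808 to 1.29 across libraries, a 1.59-fold range. The 4 libraries with the largest summed FPKM, Control 1, Control 3, P.T.ATBx 1 and P.T.ATBx 4, also had the 4 largest shares of the RNase P and RNase MRP RNAs Rpph1 and Rmrp (7.75% to 20.5% of summed FPKM over all libraries). The 17 macrophage markers were all present, and their summed level was 2365 to 3833 FPKM in Control and 2231 to 3535 in P.T.ATBx, overlapping ranges. Control 2 and P.T.ATBx 2 had the lowest macrophage marker scores, −0.28 in each, where the score is the mean over the 17 markers of log2(FPKM + 1) centred per gene. Epithelial markers were uneven, from 4.06 to 178 FPKM in Control and 11.9 to 52.9 in P.T.ATBx as a sum over 6 genes, and Cdx2, a transcription factor of intestinal epithelium, was listed at 0 in every library. In a bulk sample, a lower level of a macrophage gene can come from fewer macrophages or from less RNA in each, and these cannot be told apart.

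Of the other cells known to make GPNMB, melanocytes had markers at low values: Tyrp1 was listed at 0 in all 20 libraries, Mlana in 9 and Dct in 7 of 10 Control libraries, where a listed 0 can be a failed estimate, and the 7 markers summed to 0.495 to 1.34 FPKM in Control and 0.494 to 1.29 in P.T.ATBx. Schwann cell markers summed to 4.30 to 11.7 FPKM in Control and 4.08 to 7.36 in P.T.ATBx over 5 genes. The osteoclast receptor gene Calcr was at 0 in all 10 Control and 8 of the P.T.ATBx libraries, while the 5 osteoclast markers together were at 59.9 to 87.1 FPKM in Control and 29.7 to 68.6 in P.T.ATBx, most of it from Acp5, which macrophages also express. The summed osteoclast markers thus tended to be lower in the group with the higher Gpnmb, and their part in the values of Gpnmb was not tested.

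Promoters of 3 members are shown: Gpnmb and Cd68, because both hold a match to an AP-1 motif, and Trem2 beside them, which holds none. Each runs from 250 bases before to 50 after the annotated start in the gene's own direction (RefSeq, GRCm38.p6), and capitals mark matches to TGACTCA, the core of AP-1 sites, on either strand.

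Gpnmb, chr6:49036268-49036567, plus strand: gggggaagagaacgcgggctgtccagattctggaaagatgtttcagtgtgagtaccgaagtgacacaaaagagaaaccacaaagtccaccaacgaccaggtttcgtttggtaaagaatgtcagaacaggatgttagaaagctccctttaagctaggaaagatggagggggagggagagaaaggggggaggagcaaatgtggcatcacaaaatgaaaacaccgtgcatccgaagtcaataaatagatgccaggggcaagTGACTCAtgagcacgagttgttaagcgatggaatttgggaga
Trem2, chr17:48346151-48346450, plus strand: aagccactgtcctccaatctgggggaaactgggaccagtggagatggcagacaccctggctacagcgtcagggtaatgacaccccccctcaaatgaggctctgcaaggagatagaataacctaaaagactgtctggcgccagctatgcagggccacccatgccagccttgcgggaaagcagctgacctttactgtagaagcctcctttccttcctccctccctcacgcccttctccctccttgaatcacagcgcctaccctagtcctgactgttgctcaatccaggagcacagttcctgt
Cd68, chr11:69666121-69666420, minus strand: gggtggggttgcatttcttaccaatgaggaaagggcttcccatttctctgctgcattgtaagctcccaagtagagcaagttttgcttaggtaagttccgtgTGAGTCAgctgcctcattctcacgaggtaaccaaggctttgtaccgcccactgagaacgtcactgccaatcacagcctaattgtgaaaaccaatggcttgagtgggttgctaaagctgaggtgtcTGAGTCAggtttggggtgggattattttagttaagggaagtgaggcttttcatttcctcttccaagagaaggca

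The Gpnmb window held 1 match to TGACTCA, which begins at base 9 of the transcript, and the Cd68 window held 2, with first bases at −149 and −24 from the start. No match lay in the Trem2 window, nor in those of Spp1, Apoe, Lgals3, Cd9 and Lipa, and 8 of the 10 members had an entry, in 11 windows. Among 32817 windows of 300 bases, 5.2% held this motif. The E-box CACGTG (7.15% of windows) and the longer CLEAR element of lysosomal genes (0.326%), which contains that E-box, were in no member window. Neither was the PU.1 site AGAGGAAGT (1.01%), and CATGTG, the core of the M-box bound by MITF (14.2%), was found only in the window of Cd9, once. A match describes letters and shows no binding.

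The 10 genes spanned a wide range of levels and fell into separate tiers in Control. Apoe was the most abundant at 1259.6 ± 110.5 FPKM in Control (SD, n = 10), above 99.8% of all rows by its mean over the 20 libraries, followed by Tyrobp at 350 ± 68.8. Lgals3 (169 ± 25.1), Spp1 (154 ± 26.8), Fabp5 (134 ± 12.6) and Cd9 (117 ± 17.3) formed a middle group in which each overlapped its neighbour. Cd68 (61.7 ± 4.71) and Lipa (58.0 ± 3.74) overlapped too, and Trem2 (29.2 ± 2.69) and Gpnmb (22.8 ± 3.03) were lowest. Apoe, Tyrobp, the middle group, the pair of lysosomal genes and the pair of Trem2 and Gpnmb were apart from each other in all 10 Control libraries. In Control, Trem2 exceeded Gpnmb in 10 of 10 libraries. In P.T.ATBx it did so in 2 of 10, and Spp1 exceeded Fabp5 in 8 Control and 2 P.T.ATBx libraries.

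Gpnmb (chromosome 6, 49036518 to 49058182, GRCm38) encodes a transmembrane glycoprotein of lysosomes and phagosomes whose outer part is shed by proteases. It had 17.3 FPKM in the lowest Control library, 22.7 at the median and 27.9 in the highest. In P.T.ATBx the lowest library had 27.4, the median was 37.5 and the highest library had 75.4. The groups overlapped only through P.T.ATBx 7, at 27.4, and Control 3, at 27.9. The P.T.ATBx group was itself spread out: P.T.ATBx 5 (73.1) and P.T.ATBx 10 (75.4) stood well above the next, P.T.ATBx 6 at 48.4, and the SD was 37.9% of the mean against 13.3% in Control. The mean was 44.3 ± 16.8 FPKM against 22.8 ± 3.03, 1.94-fold, a difference of 0.86 on the log2(FPKM + 1) scale (SE 0.15). It was smallest, 0.77, on leaving out P.T.ATBx 10 and largest, 0.93, on leaving out P.T.ATBx 7.

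Trem2 (chromosome 17, 48346401 to 48352276), the lipid receptor, had a small and even difference. Its lowest, median and highest Control libraries were at 24.3, 28.6 and 34.1 FPKM, and those of P.T.ATBx at 29.1, 33.6 and 39.8. All 10 libraries of P.T.ATBx exceeded the Control median and 4 exceeded the highest Control library, so the groups overlapped. The means were 29.2 ± 2.69 and 33.7 ± 3.21 FPKM, 1.15-fold, or 0.20 in log2 (SE 0.06).

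Tyrobp (chromosome 7, 30413782 to 30417582), which encodes the adaptor that TREM2 signals through, had nearly equal means in the groups. Control ran from 275 over a median of 337 to 516 FPKM, the last being Control 1, and P.T.ATBx from 237 (P.T.ATBx 2) over 353 to 428. The ranges overlapped almost whole, and the difference was 0.01 in log2 (SE 0.11). Its sign turned negative on leaving out a single library (Control 2, Control 3, Control 7, P.T.ATBx 1, P.T.ATBx 4 and P.T.ATBx 5, each alone), and without the 4 libraries with the largest summed FPKM, where it was −0.02.

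The lysosomal members were slightly higher in P.T.ATBx. Cd68 (chromosome 11, 69664213 to 69666170), a lysosomal membrane glycoprotein widely used to mark macrophages, had a lowest, median and highest value of 52.7, 61.9 and 68.8 FPKM in Control and 59.4, 68.6 and 83.0 in P.T.ATBx. 9 of the 10 P.T.ATBx libraries were above the Control median and 5 above every Control library, P.T.ATBx 5 being highest. The difference was 0.17 in log2 (SE 0.05). Lipa (chromosome 19, 34492316 to 34527474), the acid lipase that frees cholesterol and fatty acids from engulfed lipoproteins, ran from 49.1 over 58.7 to 62.6 FPKM in Control and from 54.4 over 62.7 to 66.8 in P.T.ATBx. Here 7 P.T.ATBx libraries exceeded the Control median, and the difference was 0.09 in log2 (SE 0.04), or 0.05 without the 4 libraries with the largest summed FPKM.

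The lipid carriers were also higher. Apoe (chromosome 7, 19696244 to 19701310), the lipoprotein component that TREM2 can bind, had 1098, 1240.0 and 1479 FPKM in its lowest, median and highest Control libraries and 904, 1580.1 and 1747 in those of P.T.ATBx. The low value was P.T.ATBx 2, and the next P.T.ATBx library was at 1448, so 9 of 10 were above the Control median and 7 above every Control library. The difference was 0.26 in log2 (SE 0.09) and 0.34 without P.T.ATBx 2. Fabp5 (chromosome 3, 10012585 to 10016610), a carrier of fatty acids in the cytosol, ran from 115 over 135 to 157 FPKM in Control and from 128 over 146 to 185 in P.T.ATBx. Its difference was 0.15 in log2 (SE 0.07), with 8 P.T.ATBx libraries above the Control median, and 0.09 without the 4 libraries with the largest summed FPKM. The annotation holds a gene of similar name, Fabp5l2, so the split of reads for Fabp5 is uncertain.

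Spp1, Lgals3 and Cd9 were the 3 members with lower means in P.T.ATBx. Spp1 (chromosome 5, 104435111 to 104441053), which encodes the matrix protein osteopontin, ran from 129.7 over 145 to 218 FPKM in Control and from 102.5 over 113 to 189.8 in P.T.ATBx. In P.T.ATBx, 6 libraries were below every Control library, while P.T.ATBx 2, the library with the lowest Apoe, Tyrobp, Trem2, Cd68, Lgals3 and Lipa of its group, had the highest Spp1. The difference was −0.30 in log2 (SE 0.11) and −0.37 without P.T.ATBx 2. Lgals3 (chromosome 14, 47373860 to 47386167), the galactoside-binding lectin galectin-3, had 134, 167 and 213 FPKM at its lowest, median and highest in Control and 127, 149 and 175 in P.T.ATBx, and 9 libraries of P.T.ATBx were below the median of Control. Its difference was −0.18 (SE 0.08). Cd9 (chromosome 6, 125460266 to 125494760), a tetraspanin of cell surface and exosomes, ran from 96.4 over 116 to 152 FPKM in Control and from 97.4 over 110.0 to 123 in P.T.ATBx, ranges that overlapped widely, with a difference of −0.08 (SE 0.07), or −0.04 without Control 1. The Cd9 locus overlaps 2 annotated long noncoding RNA genes, and the counting is not stated to use strand.

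**Figure D1:**
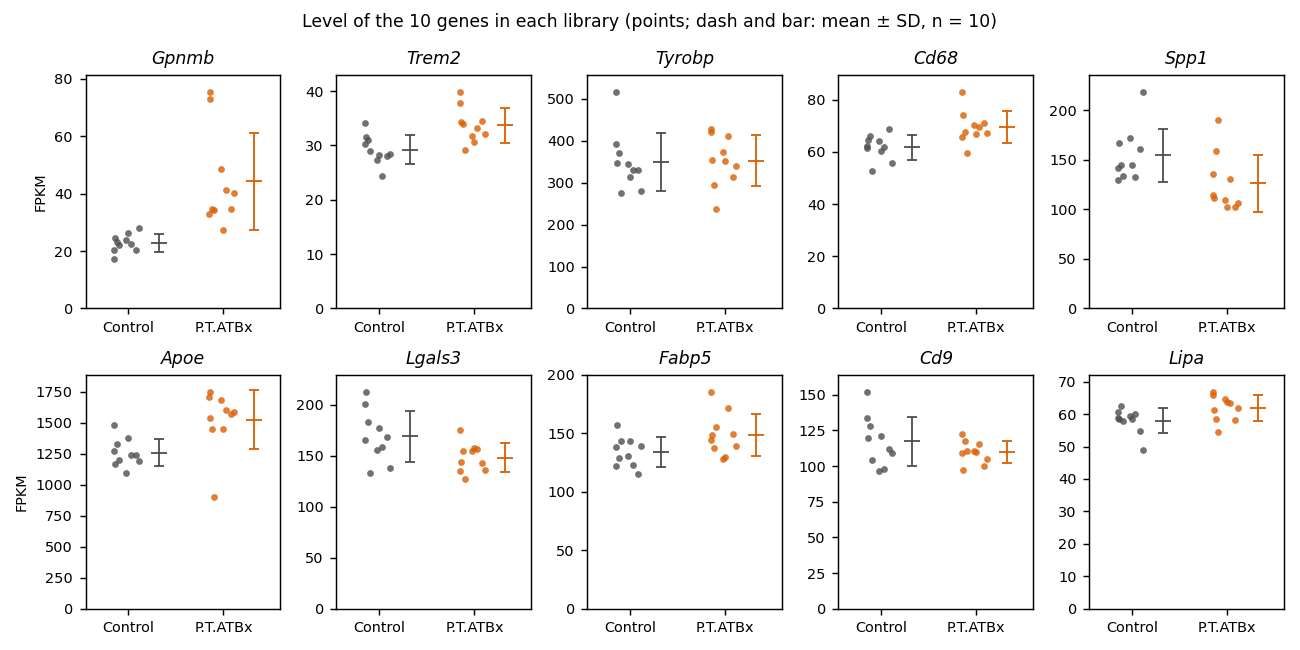
FPKM (vertical axis, from 0, a scale of its own for each gene) of the 10 genes in the 10 Control and 10 P.T.ATBx libraries; points are libraries, dashes and bars the mean ± SD. P.T.ATBx 5 and P.T.ATBx 10 stand out for Gpnmb at 73.1 and 75.4 FPKM, and P.T.ATBx 2 for Apoe at 904.

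Of the 10 members, 7 had a positive and 3 a negative difference, with a median of 0.12, where 51.5% of all 12788 genes tested were positive and their median was 0.00. In a linear model over all genes (limma, Benjamini-Hochberg adjusted p under 0.05), 0.845% of the genes tested were called in either direction (59 higher and 49 lower, against 20 and 29 on the TPM scale), and 1 of the 10 members, Gpnmb, was among them, which restates how it was chosen. Every P.T.ATBx library exceeded the median of Control for 2 members, Gpnmb and Trem2, and for 3.41% of all genes tested; 9 or 10 did so for 4 members, these and Cd68 and Apoe, and for 9.72% of all genes. Nothing is read from these counts, since the members were chosen on this contrast. With the macrophage marker score as a further term, the differences were 0.88 for Gpnmb, 0.31 for Apoe, 0.21 for Trem2, 0.20 for Cd68, 0.12 for Fabp5, 0.11 for Lipa and 0.09 for Tyrobp, and −0.07 for Cd9, −0.13 for Lgals3 and −0.35 for Spp1. The direction of each of the 10 was thus the same with and without that term.

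**Figure D2:**
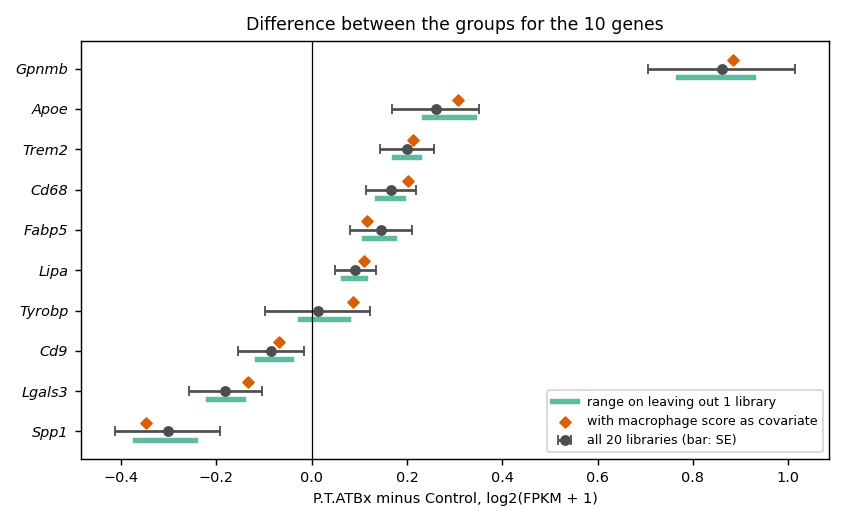
Difference between the group means (P.T.ATBx minus Control, log2(FPKM + 1), horizontal axis) for each gene; circles and bars are the value over all 20 libraries and its SE, the lower bands the range on leaving out 1 library, diamonds the value with the macrophage marker score in the model. Gpnmb, at 0.86, lies apart from the other 9, which run from −0.30 to 0.26.

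The members were chosen with the contrast between the groups known, and relations within a group were not a stated ground of that choice. The spread within each group does enter results of such a contrast. Relations were computed in each group of 10 libraries between each member and the macrophage marker score (20 relations) and between Gpnmb and the other 9 members (18 relations), by the Pearson (r) and Spearman (rho) coefficients with two-sided permutation tests, and adjusted over the 38 by Benjamini-Hochberg. By r, 11 relations had an unadjusted p under 0.05 and 0 an adjusted one, the smallest adjusted p being 0.0945 by this permutation test. By rho, 6 passed unadjusted and 1 adjusted.

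Tyrobp and Cd68 had positive relations with the marker score in both groups. In Control, Tyrobp had r = 0.73 (permutation p = 0.0376, adjusted p = 0.130) and rho = 0.89 (permutation p = 0.00127, adjusted p = 0.0483), and r = 0.86 without Control 2 and Control 7. This was the 1 relation past the adjusted threshold, and it missed it on the TPM scale (rho = 0.43, permutation adjusted p = 0.396), with a pseudocount of 0.1 (rho = 0.72, permutation adjusted p = 0.274), without the 4 libraries with the largest summed FPKM (rho = 0.81, exact permutation adjusted p = 0.165) and without Control 2 (rho = 0.85, exact permutation adjusted p = 0.105). In P.T.ATBx it had r = 0.67 (permutation p = 0.0371, adjusted p = 0.130) and rho = 0.43 (permutation p = 0.219, adjusted p = 0.378), with r = 0.06 without P.T.ATBx 2 and P.T.ATBx 5, so that relation rests on those libraries, and r = 0.945 without P.T.ATBx 1 and P.T.ATBx 4. Cd68 had r = 0.80 (permutation p = 0.00746, adjusted p = 0.0945) and rho = 0.59 (permutation p = 0.0815, adjusted p = 0.315) in Control, and 0.52 without Control 2 and Control 7. Its values in P.T.ATBx were r = 0.74 (permutation p = 0.0231, adjusted p = 0.110) and rho = 0.55 (permutation p = 0.103, adjusted p = 0.315), and r = 0.02 without P.T.ATBx 2 and P.T.ATBx 5.

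In P.T.ATBx, Lgals3 had r = 0.81 with the score (permutation p = 0.00583, adjusted p = 0.0945) and rho = 0.72 (permutation p = 0.0238, adjusted p = 0.302), and r = 0.49 without P.T.ATBx 2 and P.T.ATBx 5. Apoe and Lipa had r = 0.75 and 0.74 in that group (permutation p = 0.02 and 0.0131, adjusted p = 0.109 and 0.0973). Their rho was 0.515 and 0.539 (permutation p = 0.133 and 0.114, adjusted p = 0.315 for each). Without those libraries r was 0.006 and 0.36. Spp1 ran against the score there, with r = −0.75 (permutation p = 0.0141, adjusted p = 0.0973) and rho = −0.60 (permutation p = 0.0733, adjusted p = 0.315), and r = −0.54 without those libraries and −0.41 on the TPM scale. In Control the r of Spp1 with the score was 0.03 (permutation p = 0.933) and its rho −0.26 (permutation p = 0.471), and r was −0.84 without Control 2 and Control 7 and 0.34 on the TPM scale.

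For Gpnmb, no relation with the macrophage marker score passed the adjusted threshold over all libraries of a group. Its r with the score was −0.38 in Control (permutation p = 0.275, adjusted p = 0.441) with rho = −0.66 (permutation p = 0.0444, adjusted p = 0.311), and 0.39 in P.T.ATBx (permutation p = 0.268, adjusted p = 0.441) with rho = 0.49 (permutation p = 0.154, adjusted p = 0.344). Without the 2 libraries farthest from the median score, r was −0.95 in Control (without Control 2 and Control 7, the lowest) and −0.00 in P.T.ATBx (without P.T.ATBx 2 and P.T.ATBx 5). Without Control 2 and P.T.ATBx 2, the libraries with the lowest scores, the Control relation had r = −0.89 (exact permutation p = 0.00101, adjusted p = 0.0384, n = 9), so this value turns on Control 2. On the TPM scale the sign in Control turned, to r = 0.28 with rho = −0.04.

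Of the other members, Cd68 had the highest r with Gpnmb in P.T.ATBx. There r was 0.77 (permutation p = 0.00644, adjusted p = 0.0945) and rho 0.84 (permutation p = 0.00356, adjusted p = 0.0676), and r was 0.82 without P.T.ATBx 2 and P.T.ATBx 5. Without P.T.ATBx 5 and P.T.ATBx 10, the libraries with the highest Gpnmb, r was 0.39, so its size rests largely on these. Control gave r = −0.26 (permutation p = 0.468, adjusted p = 0.567) and rho = −0.21 (permutation p = 0.559, adjusted p = 0.663). On the TPM scale r was 0.80 in P.T.ATBx and 0.46 in Control, the latter with its sign turned. Whether the relation differs between the groups was not tested. With Trem2, Gpnmb had r = −0.41 in Control (permutation p = 0.238, rho = −0.20 with permutation p = 0.584) and 0.32 in P.T.ATBx (permutation p = 0.369, rho = 0.25 with permutation p = 0.491), and on the TPM scale r was 0.22 in Control, again of the other sign, and 0.60 in P.T.ATBx. With Tyrobp, Gpnmb had r = −0.75 in Control (permutation p = 0.0154, adjusted p = 0.0973) and rho = −0.47 (permutation p = 0.178, adjusted p = 0.372). This r was −0.73 without Control 1 and Control 2, but −0.21 without Control 1 and Control 3, so its size rests on libraries with a large summed FPKM. Without Control 2 and P.T.ATBx 2, the libraries with the lowest scores, r in Control was −0.87. With Spp1, Gpnmb had r = 0.67 in Control (permutation p = 0.0377, adjusted p = 0.130) and rho = 0.66 (permutation p = 0.0433, adjusted p = 0.311). Without Control 3 and Control 6 this r was 0.405, and without Control 1 and Control 3 it was 0.21.

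**Figure D3:**
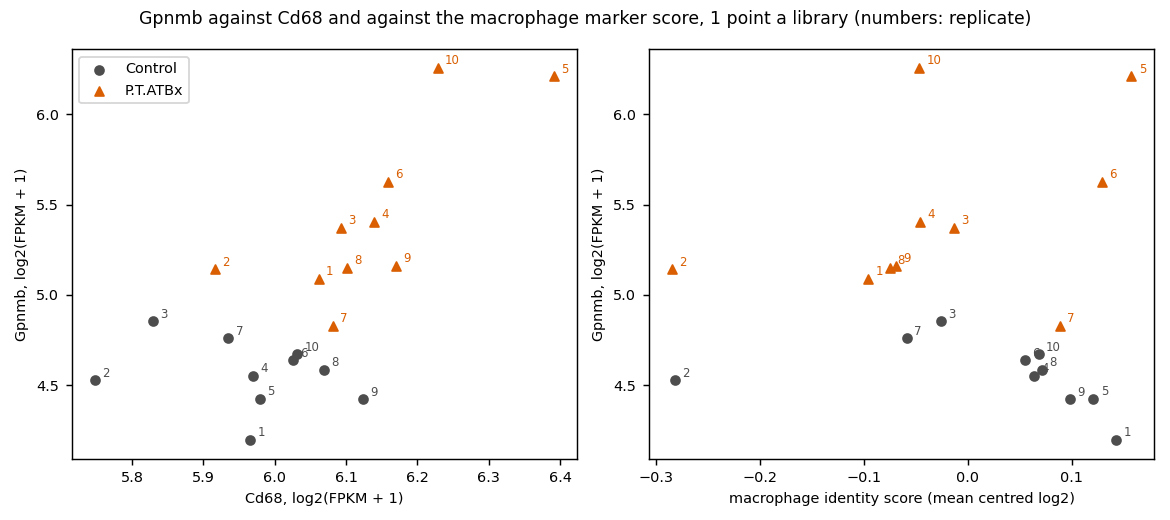
Gpnmb, log2(FPKM + 1) (vertical axes), against Cd68 on the same scale (left) and against the macrophage marker score (right); circles are Control and triangles P.T.ATBx libraries, numbered by replicate. P.T.ATBx 5 and P.T.ATBx 10 lie highest for Gpnmb, and Control 2 and P.T.ATBx 2 lie at the lowest scores, −0.28 in each.

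None of the 10 genes most like Gpnmb was a member. After each group's mean was subtracted, the 10 tested genes with the highest r with Gpnmb over the 20 libraries were Mir669g (0.72), Tnik (0.70), Pigk (0.70), Pcdhga8 (0.69), Pcsk7 (0.67), Mfsd7a (0.66), Meis1 (0.66), Tbkbp1 (0.65), Def6 (0.65) and Ccnf (0.65). These are given as a description, since they were picked from 12788 genes for this value. All genes of a library also share its scaling and depth, which differed between libraries. Pigk, which encodes an enzyme of GPI anchor attachment, had 0.73 and the homeobox gene Meis1 0.70 without P.T.ATBx 5 and P.T.ATBx 10, and Mir669g 0.30. Among the members, Cd68 had the highest r with Gpnmb (0.47), and Trem2 had 0.11. Without those libraries Cd68 had 0.11, below Spp1 at 0.16, so its first place among the members rests on them. None of these 10 genes was called between the groups (limma, adjusted p from 0.163 for Ccnf upward).

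The 5 genes most like Trem2 by the same measure were Smim3 (0.80), Sgk3 (0.78), Tmem179b (0.77), Unc119 (0.72) and Sh3gl3 (0.70). Tyrobp had 0.65, Cd9 0.62 and Apoe 0.57, and without P.T.ATBx 1 and Control 1, the libraries farthest from the median, these were 0.46, 0.42 and 0.49, below Lgals3 at 0.56 and Cd68 at 0.52, so the order of the members rests on those libraries. Both of those libraries are among the 4 with the largest summed FPKM.

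Other genes around the 10 members were taken from 6 lists, chosen like the members with earlier results of these data known, that of Msr1 among them. Of 107 such genes tested, 1 rose and 3 fell by the adjusted threshold, where 0.461% of all genes tested rose and 0.383% fell. At an unadjusted p under 0.05 there were 23, 21.5% of the list genes against 13.6% of all genes, and the median difference over all 107 was −0.01. Of all genes tested, 51.5% were positive. Because of how the lists were chosen, nothing is read from these counts or from those of single lists. The p-values of list genes are no independent evidence either.

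In the signalling list around TREM2 and DAP12, 0 of 16 tested genes passed (limma) and the median was −0.06. An unadjusted p under 0.05 was found for 2, 12.5% against 13.6% of all genes tested. The kinase gene Syk had a difference of 0.03 and Hcst, the sister adaptor DAP10, 0.01. Plcg2, the phospholipase downstream of SYK, had −0.08, and Adam10, a protease that sheds TREM2 and GPNMB, 0.02. The smallest p belonged to the activating receptor gene Cd300lb (−0.21, adjusted p = 0.212, limma) and to Sirpb1a (−0.31, adjusted p = 0.275, limma), followed by Treml4 (−0.18) and Trem3 (−0.15). Vav1, an exchange factor of the pathway, was listed at 0 in all libraries, which can be a failed estimate.

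Among 24 further genes of the lipid-associated macrophage signature, 1 rose, 0 fell, 10 were positive and the median was −0.08. The gene that rose was Ctsd, the lysosomal protease cathepsin D. Its lowest, median and highest Control libraries had 432, 462 and 535 FPKM and those of P.T.ATBx 509, 554 and 700.2, so the groups overlapped although all 10 P.T.ATBx libraries exceeded the Control median. The difference was 0.25 in log2 (SE 0.06, adjusted p = 0.0321, limma). The call of Ctsd ended on leaving out a single library, be it Control 5, 7, 8, 9, 10 or P.T.ATBx 1, 3, 4, 10, with differences from 0.23 to 0.25 and adjusted p from 0.0515 to 0.0704 (limma).

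The largest difference of the signature was that of Atp6v0d2, a subunit of the vacuolar proton pump found in macrophages and osteoclasts, at 1.53 ± 0.643 FPKM in Control, against 3.38 ± 1.65 in P.T.ATBx (0.73, SE 0.20, adjusted p = 0.0853, limma). 9 of 10 P.T.ATBx libraries exceeded its Control median. Without P.T.ATBx 2 (0.87 FPKM) it passed, at 0.86 (adjusted p = 0.0131, limma), and it passed with the macrophage marker score as a term as well (0.83, adjusted p = 0.0245, limma). Acp5, the tartrate-resistant phosphatase of osteoclasts and macrophages, was at 54.5 ± 7.35 and 37.5 ± 10.2 FPKM (−0.58, SE 0.17, adjusted p = 0.103, limma), and without P.T.ATBx 2, which had 13.0 FPKM, it passed at −0.43 (adjusted p = 0.00979, limma). The lipid droplet coat gene Plin2 had −0.15 (adjusted p = 0.286, limma). Cd36, Lpl and Fabp4, lipid uptake genes that adipocytes also express, had −0.30, −0.31 and −0.32. Their highest library for Cd36 and Lpl reached 90.7 and 89.9 FPKM in Control, against 25.0 and 27.6 in P.T.ATBx, and adipocyte markers summed to 16.5 to 1712 FPKM in Control and 30.6 to 398 in P.T.ATBx. The part of fat tissue in these differences was not tested.

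In the list of cholesterol and lipoprotein handling, 0 of 22 rose, 1 fell and 16 were negative, with a median of −0.09. Positive were 27.3%, against 51.5% of all genes tested. The gene counted, the scavenger receptor gene Msr1, went from 37.2 ± 3.84 to 30.04 ± 3.14 FPKM (SD, n = 10), a log2 difference of −0.30 (SE 0.06), and no library of P.T.ATBx reached the median of Control. Its earlier result was known when the list was made, so its value is a description and its place in the count is no independent evidence. Msr1 left the count on the TPM scale, with the replicate number as a block, without P.T.ATBx 4 and without P.T.ATBx 9. It also did so without the 4 libraries with the largest summed FPKM. Vldlr, a lipoprotein receptor that binds apolipoprotein E, was at 1.10 ± 0.346 and 0.604 ± 0.260 FPKM (−0.39, SE 0.10, adjusted p = 0.0604, limma), and it passed without Control 5, without P.T.ATBx 2 or without P.T.ATBx 6, with adjusted p (limma) of 0.0274, 0.0165 and 0.0467. The cholesterol hydroxylase gene Ch25h (−0.39, adjusted p = 0.287, limma), the oxysterol receptor gene Nr1h3 (−0.29, adjusted p = 0.3004, limma) and the cholesterol exporter of lysosomes Npc1 (0.13, adjusted p = 0.330, limma) followed. The cholesterol efflux pump genes Abca1 and Abcg1, targets of that receptor, had 0.10 and −0.01.

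For the MiT/TFE factors, which drive lysosomal genes, and a set of lysosomal genes, 0 of 21 passed (limma). An unadjusted p under 0.05 was found for 3, 14.3% against 13.6% of all genes tested. Positive were 18 of 21, against 51.5% of all genes tested, with a median of 0.04, and nothing is read from this count. The values were small: Gla (0.13), Tfeb (0.12), Lamp1 (0.10) and Scarb2 (0.08) had the smallest p, with adjusted p (limma) from 0.206 to 0.381. Mitf, a factor known to drive Gpnmb, had 0.06 and Tfe3 −0.03.

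Among 10 receptors of osteopontin and GPNMB, 1 fell, 0 rose and 5 were positive. Sdc4, the heparan sulfate proteoglycan syndecan-4 that GPNMB binds on T cells, fell by 0.39 in log2 (SE 0.06, adjusted p = 0.00181, limma). Its lowest, median and highest libraries were at 42.2, 48.8 and 61.9 FPKM in Control and 33.5, 36.5 and 45.1 in P.T.ATBx, and the groups overlapped although no P.T.ATBx library reached the median of Control. Sdc4 kept its call in every alternative and on leaving out each library. Itgb3, the beta chain of an osteopontin-binding integrin, had −0.32 (adjusted p = 0.0731, limma) and passed without Control 1, without Control 2 or without P.T.ATBx 6, with adjusted p (limma) of 0.0316, 0.0419 and 0.0272. Its partner Itgav had 0.09 and Itgb5 0.16, with adjusted p (limma) of 0.294 and 0.296, and the osteopontin receptor gene Cd44 −0.03.

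Of 14 tested relatives of the members, 1 fell, 0 rose and 7 were positive, with a median of 0.00. The gene counted, Apod, was listed by its name: it is a lipocalin called an apolipoprotein that is unrelated in fold to apolipoprotein E. It went from 22.7 ± 2.35 to 15.9 ± 2.13 FPKM (−0.49, SE 0.07). The list was made with earlier results of these data known, so this value is a description. Its place in the count is no independent evidence. Fibroblasts also express Apod, and fibroblast markers summed to 1100.4 to 1542 FPKM in Control and 911 to 1132 in P.T.ATBx. The 6 markers were all negative but uneven, from −0.35 for Lum to −0.05 for Col1a2, with −0.13 for Col1a1. Their part in the fall of Apod was not tested. Lgals4 had 0.27 (adjusted p = 0.142, limma) at 0.520 ± 0.221 and 0.828 ± 0.217 FPKM, and Igsf8, which partners CD9, had −0.09. Lgals1, the galectin made in the largest amount here, was at 3897 ± 403 and 4140 ± 496 FPKM, a difference of 0.08. Pmel, the closest relative of Gpnmb, was at 0.505 ± 0.129 and 0.504 ± 0.168 FPKM.

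Of the 17 macrophage markers, 0 passed (limma), 8 were positive, and the median was −0.04. An unadjusted p under 0.05 was found for 4, 23.5% against 13.6% of all genes tested. Csf1r, the receptor macrophages need to survive, averaged 79.0 ± 8.97 FPKM in vehicle-treated and 80.9 ± 11.7 in ATBx-treated tumours, and Adgre1 (Emr1 in the table), the F4/80 antigen, 47.8 ± 4.26 and 49.0 ± 7.37. Cd163 (−0.46), Mrc1 (−0.32), Ms4a7 (0.25) and Fcgr1 (−0.18) had the smallest p, with adjusted p (limma) from 0.186 to 0.361.

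**Figure D4:**
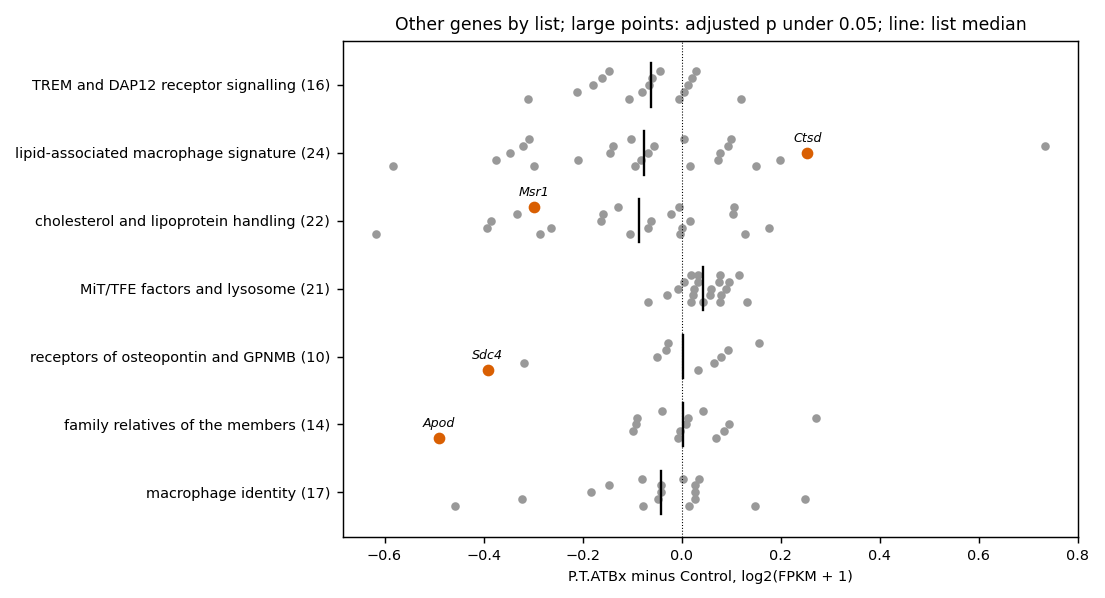
Difference between the groups (P.T.ATBx minus Control, log2(FPKM + 1), horizontal axis) of every tested gene of 6 lists around the members and of the macrophage markers, 1 point a gene; large points have an adjusted p under 0.05 (limma), and lines are list medians. Ctsd lies to the right at 0.25, and Msr1, Sdc4 and Apod lie to the left at −0.30, −0.39 and −0.49.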

How the data were processed

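RNA in 20 libraries of MC38 tumour tissue was measured with a stranded total RNA kit, per the labels' protocols. The authors deposited 1 table of FPKM with an Entrez number and symbol per row, on the mm10 build per the submitters' processing notes; which tools aligned and counted the reads is not given in the sources used here. Groups came from the sample titles and columns were matched through the library numbers in the labels. Values were taken as log2(FPKM + 1), and 12788 rows passing a mean of 0.5 FPKM or more were fitted in limma 3.58.1 (R 4.3.3) with group as the only term, trended and robust moderation, and Benjamini-Hochberg adjustment over all of them. Fold changes understate low genes. The scripts were tested on simulated data. Permutation tests drew 100000 resamples, or all orders where a group had fewer than 10 libraries. Depth in reads is unknown. The number of libraries limits the precision.

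The members and gene lists were chosen with earlier results of these data known. Genes were named by rule: all members, called genes and up to 4 more with the smallest p of each list, and the genes most like Gpnmb or Trem2, leaving out predicted genes by name. Others, such as Syk, Hcst, Plcg2, Adam10, Cd36, Lpl, Fabp4, Abca1, Abcg1, Mitf, Tfe3, Cd44, Lgals1, Pmel, Csf1r and Adgre1, were named after their values were seen, for their known roles. Adgre1 and Lilrb4a were found under older symbols by Entrez number through RefSeq (GRCm38.p6), which also gave positions and promoters. Alternatives were another pseudocount, other filters and scalings, weights, plain moderation, the replicate number as a block, the marker score as a term, and leaving out libraries. A result for 1 gene that the rule names is not reported here.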

Additional observations from a re-analysis of the deposited data

Results flagged for a closer look

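Among the 20 sets of 10 values given by the 10 members in the 2 groups, 3 had a library standing far from the rest, with a gap to its nearest neighbour above 0.466 of the whole range (Dixon's 95% limit). Chance puts about 1 in 20 such sets past this limit, so 1 would be expected. Tyrobp was at 516.2 FPKM in Control 1, next to 392 in the nearest library. Spp1 was at 218.4 FPKM in Control 3, next to 172. Apoe was at 904 FPKM in P.T.ATBx 2, next to 1448. Control 1 and Control 3 are among the 4 libraries with the largest summed FPKM, and P.T.ATBx 2 had the lowest macrophage marker score. Control 3 also had the highest summed adipocyte (1712 FPKM), epithelial (178) and fibroblast (1542) markers of the 20 libraries. The part of any of these in the outlying values was not tested.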

How the results depend on the processing

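The difference of each member kept to within 1 SD of its value in all 20 single-library omissions and 11 other alternatives. This limit is wide and shows little. Leaving out 1 of 10 libraries cannot move a group mean that far, so the result of the omissions was fixed in advance. For Tyrobp, Cd9 and Lipa the SD (0.26, 0.16 and 0.093 in log2) was larger than the difference itself. Only Tyrobp changed sign, as given above. Of all genes tested, 59 were higher and 49 lower, against 20 and 29 on the TPM scale, 154 and 152 with array weights, and 31 higher without the 4 libraries with the largest summed FPKM. On leaving out 1 library the counts ran from 38 to 104 higher and from 31 to 89 lower, lowest without P.T.ATBx 4 and highest without Control 1. Of the other pathway genes, 1 was higher and 3 lower, against 2 and 5 with array weights, 2 higher with the marker score as a term, and 0 to 2 higher and 2 to 5 lower on leaving out 1 library; both maxima were without P.T.ATBx 2. The cause of these shifts was not tested. By r, 0 of 38 relations passed, against 5 on the TPM scale, 3 without the 4 libraries with the largest summed FPKM and 3 without Control 2 and P.T.ATBx 2; the last 2 settings and the omission of the 2 libraries with the highest Gpnmb were chosen after seeing the data. On the TPM scale Lipa had r = 0.95 with the score in P.T.ATBx (permutation p = 1e-05, the smallest that the resamples can give, adjusted p = 0.00038). Without that rescaling r was 0.74 (permutation adjusted p = 0.0973). The TPM scale multiplies Lipa and the markers of a library by the same factor, and its part in the higher r was not tested. The planned omission of libraries over 3 scaled median absolute deviations gave no value, since 0 libraries met it.

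Whether same-numbered libraries are paired is not stated in the labels used here. They correlated above 0.1 in 5 of 10 pairs (from −0.31 to 0.39), and 3 of 10 Control libraries matched best their own number. Values were centred within each group, which removes the group difference and keeps what a pair would share. No test was made of these values, so they neither show nor exclude a pairing. With the replicate block, 124 genes were called in place of 108, and 2 of the other pathway genes were higher, Ctsd and Atp6v0d2 (adjusted p = 0.0172, limma), and Itgb3 gained a call (adjusted p = 0.0400, limma). Read depth is unknown and sets no limit that can be given here.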

Other observations

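Control 2 and P.T.ATBx 2, which share a number and are not stated to be paired, had near-equal macrophage marker scores. Beside these, Gpnmb had 22.04 FPKM in the former and 34.3 in the latter, Trem2 28.9 and 29.1, Tyrobp 275 and 237, Spp1 133 and 189.8 and Apoe 1201 and 904. Neither library is a group, and no test was made.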
